A study of Mus musculus with 30 samples.

Results

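The genes described here are 7 parts of the Notch pathway: the receptors Notch1 and Notch2, the DNA-binding protein Rbpj, and the Notch-responsive genes Hes1, Hes5, Nrarp and Dtx1. They were taken by name, as every array probe whose gene name or synonym is one of these symbols. That gave 8 of 41174 probes and 7 of 20885 named genes, with 2 probes for Notch1 and 1 for each other gene. Beside them stand all 347 peaks, from 24 deposited lists, that lie within 50 kb of the position of a member's probes on mouse build mm8.

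The study asked how E2A, EBF1 and FOXO1 act together in early B cell development, using cells arrested at successive steps. RNA was measured on 2-colour Agilent arrays in pre-pro-B cells lacking E2A (E2A-/-) or EBF1 (EBF-/-) and in RAG1-/- pro-B cells, all C57BL/6, with 2 samples a group. For the pre-pro-B cells the culture held S17 stroma and the cytokines IL7, SCF and FLT3 ligand. The pro-B cells were B220+ femoral marrow cells, enriched magnetically and grown over 10 d in SCF and IL-7. Any comparison with RAG1-/- cells thus joins a genotype and a culture, which cannot be told apart. Chromatin immunoprecipitation (ChIP-seq) lists came from 1 library each. They covered E2A and 5 histone marks in EBF-/- cells, and the same with EBF1, FOXO1 and CTCF in RAG1-/- cells. E2A and the mark H3K4me1 were also mapped in E2A-/- pre-pro-B cells and in A12, an E2A-/- line labelled as double-positive T cells. Those cells carried, from a retrovirus, E47-ER (the complete E2A protein joined to the ligand-binding domain of the estrogen receptor) or, for H3K4me1 only, bHLH-ER, which lacks both activation domains. They received 1 µM tamoxifen for 1 h or 6 h after 21 h of culture and were enriched for the surface tag hCD25. A mock immunoprecipitation of wild-type lymphoid cells was the only control list.

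Notch receptors are cleaved after a ligand on a neighbouring cell binds them, and the freed intracellular part joins RBPJ on DNA, where it displaces corepressors and recruits Mastermind coactivators. Hes1 and Hes5 encode repressors of the bHLH-Orange family, Nrarp encodes an ankyrin-repeat protein that limits the complex, and Dtx1 encodes Deltex1, a ubiquitin ligase that modulates Notch; all 4 are textbook Notch target genes. In lymphoid progenitors strong Notch1 signalling favours the T lineage over the B lineage, and Notch2 is known for its role in marginal zone B cells.

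RefSeq promoter windows of build GRCm38.p6, 250 bases before to 50 after a gene's start, were found for 6 of the 7 genes (Rbpj had 2 windows). The windows of Hes5, Nrarp and Dtx1 are printed because these genes rose in pro-B cells, and that of Notch1 because it fell. They were not placed on mm8, the build of the peaks. Both strands were searched for 8 short motifs: TGGGAA and TGTGAA (the core read by RBPJ), the E-box CANNTG with CAGGTG and CAGCTG (the E-boxes that E2A prefers, which are also matches to CANNTG), CCCNNGGG (the core of the EBF1 motif), and TGTTTAC and TGTTTGC (FOXO1). Capitals mark every match.
Hes5 (chr4:154960673-154960972, plus strand): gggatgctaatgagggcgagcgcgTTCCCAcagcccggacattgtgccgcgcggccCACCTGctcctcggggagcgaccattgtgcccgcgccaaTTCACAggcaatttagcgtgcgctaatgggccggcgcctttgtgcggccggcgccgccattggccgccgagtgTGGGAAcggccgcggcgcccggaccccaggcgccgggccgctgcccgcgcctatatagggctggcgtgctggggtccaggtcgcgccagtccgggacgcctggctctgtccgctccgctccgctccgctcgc
Nrarp (chr2:25180508-25180807, plus strand): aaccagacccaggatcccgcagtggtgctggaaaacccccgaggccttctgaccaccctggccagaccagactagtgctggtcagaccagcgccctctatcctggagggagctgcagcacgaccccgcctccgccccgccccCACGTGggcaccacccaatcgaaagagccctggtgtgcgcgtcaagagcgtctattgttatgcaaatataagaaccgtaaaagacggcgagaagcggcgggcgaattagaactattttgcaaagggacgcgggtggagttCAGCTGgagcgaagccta
Dtx1 (chr5:120711620-120711919, minus strand): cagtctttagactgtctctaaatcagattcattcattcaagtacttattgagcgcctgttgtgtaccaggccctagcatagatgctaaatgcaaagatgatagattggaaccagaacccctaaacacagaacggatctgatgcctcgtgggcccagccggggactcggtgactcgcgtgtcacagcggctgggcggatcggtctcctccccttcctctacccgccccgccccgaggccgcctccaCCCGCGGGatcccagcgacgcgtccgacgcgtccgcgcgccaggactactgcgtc
Notch1 (chr2:26503773-26504072, minus strand): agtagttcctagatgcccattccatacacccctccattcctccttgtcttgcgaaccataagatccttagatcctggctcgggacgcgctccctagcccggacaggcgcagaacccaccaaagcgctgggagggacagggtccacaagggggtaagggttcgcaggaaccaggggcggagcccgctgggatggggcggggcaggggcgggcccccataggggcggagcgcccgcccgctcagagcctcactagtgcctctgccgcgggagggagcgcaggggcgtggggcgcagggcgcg
Counting the first transcribed base as position 1 and the base before it as -1, the Hes5 window held RBPJ core letters at -226, -155 and -82, those at -226 and -155 on the minus strand. It also held a CAGGTG, read on the minus strand, at -194. Nrarp had no RBPJ core match in its window, one E-box at -108 and a CAGCTG at 33. Dtx1 held a CCCNNGGG at -5 and no other match, and Notch1 held none of the 8 motifs. These letters are common: of 32851 windows of the same length, 25.6% held TGGGAA, 14.8% TGTGAA, 72.3% CANNTG, 20.2% CAGGTG, 16.3% CAGCTG and 13.7% CCCNNGGG. TGTTTAC (3.65% of windows) and TGTTTGC (5.07%) were in none of the members' windows. A match is a description of the letters and not a measured site.

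Notch1 fell in pro-B cells against both pre-pro-B groups, while 4 Notch-responsive genes rose there. On the normalized log2 intensity scale, Notch1 read 11.89 and 11.85 for E2A-/-, 11.49 and 11.55 for EBF-/-, then 9.09 and 8.99 for RAG1-/- samples. Both RAG1-/- samples were low and the groups did not overlap. In the fit over all genes (limma, Benjamini-Hochberg adjusted p), Notch1 fell by 2.48 from EBF-/- to RAG1-/- cells (SE 0.10, n = 2 per group), which is 5.57-fold lower (adjusted p = 0.000481). Against E2A-/- cells it fell by 2.83 (SE 0.10), 7.10-fold lower (adjusted p = 0.000357). The difference between EBF-/- and E2A-/- cells, -0.35 on the log2 scale, did not pass the threshold of 0.05 (adjusted p = 0.0659); it passed without RAG1-/- replicate 1 (0.0201) or 2 (0.02). Nothing in the labels says that the 2 samples of a group came from separate cultures or animals, so p-values measure only the spread between these samples, which may be technical. In cell populations, fewer cells that express a gene and less RNA per cell cannot be told apart.

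The second Notch1 probe lies next to the first, and the 2 share 1 base at the 3' end of the gene (the pair spans chr2:26281261-26281378, minus strand, mm8). It read 11.11 and 11.08 for E2A-/-, 10.82 and 10.70 for EBF-/-, then 8.35 and 8.52 for RAG1-/- samples. The order of the groups was the one seen with the first probe, and the RAG1-/- samples were again the low ones. With probes fitted in place of genes, its change was -2.33 (adjusted p = 0.000792) against EBF-/- and -2.66 (adjusted p = 0.000545) against E2A-/- cells. On the 1 array that held both a RAG1-/- and an E2A-/- sample, the log2 ratio of the deposited signals, before any normalization between arrays, was -2.78 and -2.76 for the 2 Notch1 probes.

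Notch2, the other receptor, could not be ranked. Its 1 probe (chr3:98232687-98232746, plus strand) read 4.77 and 3.27 for E2A-/-, 3.33 and 4.87 for EBF-/-, then 4.58 and 4.69 for RAG1-/- samples. Only E2A-/- replicate 1 was well above background, the groups overlapped, and the gene was not tested. The lowest log2 level that counted as well above background differed between samples. It was 3.92 and 6.86 in E2A-/- replicates 1 and 2, 6.25 and 5.21 in EBF-/-, and 4.71 and 4.74 in RAG1-/- samples. Without the filter on dim probes the changes of Notch2 ran from 0.08 to 0.63 on the log2 scale and none passed the threshold (lowest adjusted p = 0.699).

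Rbpj, the nuclear partner of all Notch receptors, stayed bright in all 6 samples. Its levels were 11.18 and 11.30 for E2A-/-, 10.62 and 10.65 for EBF-/-, then 10.68 and 10.72 for RAG1-/- samples. The E2A-/- samples were the highest, and the EBF-/- and RAG1-/- ranges lay side by side. Rbpj was 1.52-fold lower in EBF-/- than in E2A-/- cells (adjusted p = 0.0181) and 1.46-fold lower in RAG1-/- than in E2A-/- cells (adjusted p = 0.0123). From EBF-/- to RAG1-/- cells the difference was 0.06 (SE 0.10, adjusted p = 0.648). Both Rbpj calls were lost without normalization between channels and without either E2A-/- or either EBF-/- sample.

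Hes5 had the largest measured change among the members. It read 8.15 and 7.61 for E2A-/-, 7.40 and 7.43 for EBF-/-, then 11.67 and 12.06 for RAG1-/- samples. Both RAG1-/- samples were far above the other 4. Hes5 rose by 4.45 on the log2 scale (SE 0.19) from EBF-/- to RAG1-/- cells, 21.9-fold (adjusted p = 0.000552), and was 15.8-fold higher than in E2A-/- cells (adjusted p = 0.000567). Between EBF-/- and E2A-/- cells it differed by -0.47 (SE 0.19), which did not pass (adjusted p = 0.154). Both comparisons with RAG1-/- cells kept their direction and their side of the threshold in all 16 alternatives run, although the rise from EBF-/- cells read 3.72 with normexp background correction.

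Hes1, the more widely expressed relative of Hes5, was detected only in pro-B cells. It read 3.80 and 3.26 for E2A-/- with 3.18 and 4.49 for EBF-/- samples, none of them well above background, then 8.09 and 7.89 for RAG1-/- samples. The comparison therefore has only a bound, the mean of the bright group against the lowest signal that counted as well above background in the dim samples. On that basis Hes1 was at least 4.80-fold higher in RAG1-/- than in EBF-/- cells (adjusted p = 0.00753) and at least 6.06-fold higher than in E2A-/- cells (adjusted p = 0.00581). Hes1 passed the filter on dim probes only through the RAG1-/- samples, so it had to differ there and these p-values are not independent of that filter. Without RAG1-/- replicate 1 the adjusted p rose to 0.0743 and 0.0608, and without replicate 2 to 0.0727 and 0.0603. These bounds hold for the signals as deposited: with normexp background correction (offset 50) the fitted changes of Hes1 were 1.64 against EBF-/- and 1.68 against E2A-/- cells on the log2 scale, smaller than the bounds.

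Nrarp, a feedback inhibitor, was likewise detected only in pro-B cells. Its levels were 3.81 and 3.60 for E2A-/-, 6.09 and 5.21 for EBF-/-, then 7.85 and 8.31 for RAG1-/- samples, again well above background only in RAG1-/- cells. The 3 groups did not overlap, but the EBF-/- and E2A-/- values lie at background and their difference is not given. Nrarp was at least 5.09-fold higher in RAG1-/- than in EBF-/- cells (adjusted p = 0.00826) and at least 6.43-fold higher than in E2A-/- cells (adjusted p = 0.00167). Like Hes1, it passed the filter on dim probes only through the RAG1-/- samples and so had to differ there. The call against EBF-/- cells was lost without either EBF-/- sample and without either RAG1-/- sample, with adjusted p from 0.0544 to 0.0752. With normexp background correction the fitted changes of Nrarp, 1.19 and 1.62 on the log2 scale, were likewise smaller than these bounds.

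Dtx1 was the most variable member within a group. It read 7.48 and 6.60 for E2A-/- (the second not well above background), 6.77 and 6.99 for EBF-/-, then 11.44 and 9.67 for RAG1-/- samples. The RAG1-/- samples were the most spread (10.55 ± 1.26, SD, n = 2), and both were above the other 4. Dtx1 rose by 3.69 (SE 0.65) from EBF-/- to RAG1-/- cells, 12.9-fold (adjusted p = 0.0127), and was 11.4-fold higher than in E2A-/- cells (adjusted p = 0.0139), where 1 of 2 samples was measured. Without EBF-/- replicate 1 or 2 the adjusted p against EBF-/- cells was 0.0635 and 0.0658. The size of the rise followed single samples: against EBF-/- cells it was 2.62 without RAG1-/- replicate 1, 4.74 without replicate 2 and 2.80 with normexp background correction. Against E2A-/- cells the change in Dtx1 was 2.46 and 4.58 without RAG1-/- replicates 1 and 2, 4.44 and 2.56 without E2A-/- replicates 1 and 2, and 2.67 with normexp. The difference between EBF-/- and E2A-/- cells, -0.18, did not pass (adjusted p = 0.881) and had the opposite sign, 0.77, without E2A-/- replicate 1.

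**Figure D1:**
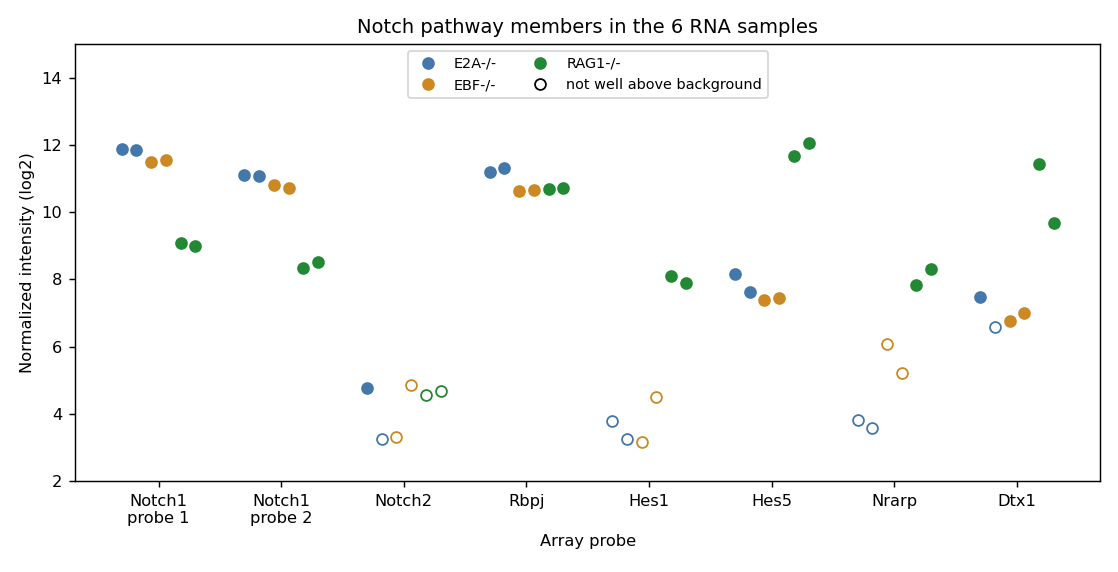
Normalized log2 intensity (vertical axis) of the 8 member probes (horizontal axis) in the 6 RNA samples, coloured by group, 1 point per sample, with open points not well above background. The RAG1-/- points lie below the others for both Notch1 probes (9.09 and 8.99 for the first) and above them for Hes1, Hes5, Nrarp and Dtx1.

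Counted over the members, 6 of the 7 were tested, of which Hes1 and Nrarp passed the filter on dim probes only through the RAG1-/- samples and so had to differ there. From EBF-/- to RAG1-/- cells 4 members rose (Hes1, Hes5, Nrarp, Dtx1) and 1 fell (Notch1), where 21.3% of all 12593 genes tested rose and 22.7% fell. From E2A-/- to RAG1-/- cells the same 4 rose and 2 fell (Notch1, Rbpj), against 23% of genes rising and 23.2% falling. Between EBF-/- and E2A-/- cells none rose and Rbpj alone fell, where 12.7% of genes rose and 11.6% fell. Hes1 and Nrarp were dim in both of those groups. The comparisons share samples, so that their calls are not independent. Without either EBF-/- or either RAG1-/- sample, 3 of the 5 calls between RAG1-/- and EBF-/- cells passed. Without normalization between channels, 59.9% of the calls between RAG1-/- and EBF-/- cells were higher, against 48.3% in the reported fit, and the median of all genes moved to 0.58. Under that scaling the members' directions held, and the fall of Notch1 read -1.95 with an adjusted p of 0.0804.

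**Figure D2:**
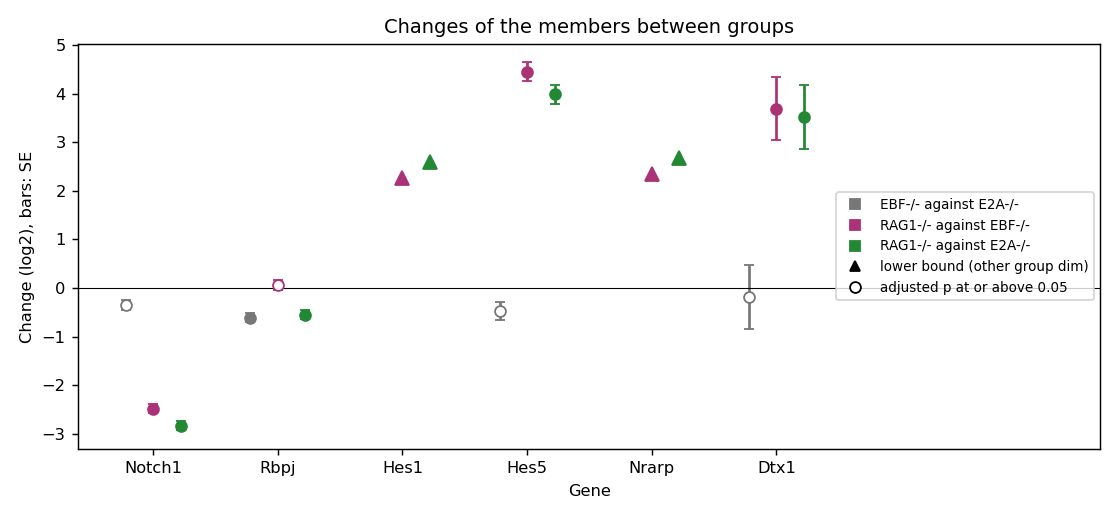
Change in log2 units (vertical axis) of 6 members in the 3 comparisons, with bars for the SE of the fit. Triangles are lower bounds where the other group was dim, and open circles did not pass the adjusted p of 0.05. Notch1 lies below 0 and Hes1, Hes5, Nrarp and Dtx1 lie above it in both comparisons with RAG1-/- cells.

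The rest of the pathway did not move as one. Of 77 further Notch pathway genes, 76 were on the array and 63 were tested. From EBF-/- to RAG1-/- cells 7 rose and 18 fell, where 21.3% of all genes tested rose and 22.7% fell. The median was -0.12 on the log2 scale, or -0.10 with genes dim in 1 group set to their bound, against 0.04 and 0 over all genes. From E2A-/- to RAG1-/- cells 10 rose and 19 fell, where 23% of all genes rose and 23.2% fell. The median was 0.01, or 0 with bounds, against 0.03 in both counts over all genes. Between EBF-/- and E2A-/- cells 13 rose and 8 fell, where 12.7% of all genes rose and 11.6% fell. The median was 0.05, or 0.04 with bounds, against 0 over all genes with bounds. The counts depend on single samples: without EBF-/- replicate 1, 3 rose and 6 fell from EBF-/- to RAG1-/- cells, and without replicate 2, 2 rose and 6 fell. From E2A-/- to RAG1-/- cells, 4 rose and 8 fell without E2A-/- replicate 2, and 6 rose and 10 fell without replicate 1. Leaving out either EBF-/- sample there gave 5 that rose. Between EBF-/- and E2A-/- cells the counts with 1 sample left out ran from 2 that rose and 2 that fell (either EBF-/- sample) to 17 and 15 (either RAG1-/- sample), with 5 or 6 and 2 without E2A-/- replicate 1 or 2. These lists were drawn up with results of these samples known and are described only.

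The other receptors were faint. Notch3 read 4.71 and 3.24 for E2A-/-, 7.05 and 6.84 for EBF-/-, then 4.52 and 4.49 for RAG1-/- samples. The EBF-/- samples stood out, and the RAG1-/- samples were not well above background. Notch3 was at least 4.66-fold lower in RAG1-/- than in EBF-/- cells (adjusted p = 0.0275). It passed the filter on dim probes only through the EBF-/- samples, so this p-value is not independent of that filter. Notch4 was 2.54-fold lower in RAG1-/- than in EBF-/- cells (adjusted p = 0.0248), with 1 of 2 EBF-/- samples well above background.

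Of 7 ligand genes, 3 were tested. Dlk1, an inhibitory relative of the Delta ligands, read 10.21 and 10.17 in EBF-/- samples, 3.45 and 5.64 in E2A-/- and 3.85 and 6.46 in RAG1-/- samples. Only the EBF-/- samples were bright, and Dlk1 was 33.4-fold lower in RAG1-/- than in EBF-/- cells (adjusted p = 0.0266), with 1 of 2 RAG1-/- samples well above background and its other probe dim in both. Dlk1 passed the filter on dim probes only through the EBF-/- samples, so this p-value is not independent of that filter. Jag2 was 5.04-fold lower in RAG1-/- than in E2A-/- cells (adjusted p = 0.0091).

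Among genes that mature and cleave the receptor, Furin, the protease that makes the first cut, read 13.46 and 13.57 for E2A-/-, 13.20 and 13.40 for EBF-/-, then 10.02 and 10.21 for RAG1-/- samples. The RAG1-/- samples were the low ones, 9.11-fold below EBF-/- cells (adjusted p = 0.000473). Adam10, which makes the ligand-dependent cut, was 2.50-fold higher in RAG1-/- than in EBF-/- cells (adjusted p = 0.0144), with 1 of 2 EBF-/- samples well above background. It passed the filter on dim probes only through the RAG1-/- samples, so its p-value is not independent of that filter. None of the gamma-secretase genes passed the threshold in that comparison. Of 8 coactivator genes, Maml2, a Mastermind gene, was at least 3.74-fold higher in RAG1-/- than in EBF-/- cells (adjusted p = 0.0336), and no other passed. Maml2 likewise passed the filter on dim probes only through the RAG1-/- samples, and neither EBF-/- sample was well above background.

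The 15 corepressor genes split. Ctbp2 fell 15.8-fold from EBF-/- to RAG1-/- cells (adjusted p = 0.000372), and Tle1, a Groucho family gene whose products bind Hes proteins, rose 4.05-fold (adjusted p = 0.00268). Of 10 tested genes of receptor turnover and inhibition, 5 fell and 1 rose in that comparison, where 22.7% of all genes fell and 21.3% rose. Dtx4, a relative of Dtx1, read 12.39 and 12.42 for E2A-/-, 12.74 and 12.96 for EBF-/-, then 9.29 and 9.35 for RAG1-/- samples. Its direction was opposite to that of Dtx1: it was 11.6-fold lower in RAG1-/- than in EBF-/- cells (adjusted p = 0.000408).

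Of 18 further genes listed as targets, with other Hes family genes such as Hes6 among them, 11 were tested. Whether Notch induces each of them in these cells was not tested. From EBF-/- to RAG1-/- cells 1 rose and 5 fell, beside 21.3% and 22.7% of all genes. From E2A-/- to RAG1-/- cells 3 rose and 8 fell, beside 23% and 23.2% of all genes. From E2A-/- to EBF-/- cells 3 rose and 4 fell, beside 12.7% and 11.6% of all genes. Heyl, a bHLH-Orange repressor, read 4.75 and 3.64 for E2A-/-, 3.52 and 3.39 for EBF-/-, then 9.72 and 8.96 for RAG1-/- samples. It was high in both RAG1-/- samples, at least 12.2-fold above EBF-/- cells (adjusted p = 0.00254). Heyl, like Hes1, passed the filter on dim probes only through RAG1-/- cells and so had to differ there. Gata3 and Tcf7, T lineage regulators that Notch is known to induce, went the other way from EBF-/- to RAG1-/- cells: Gata3 fell at least 49.7-fold (adjusted p = 0.000427) and Tcf7 fell 7.62-fold (adjusted p = 0.00814). Tcf7 read 9.23 and 9.19 in EBF-/-, 6.06 and 6.53 in RAG1-/- and 3.00 and 3.94 in E2A-/- samples. It was therefore lowest in E2A-/- cells, where that probe was not well above background. Ccnd1, which encodes cyclin D1, read 11.60 and 11.58 for E2A-/-, 7.36 and 6.11 for EBF-/-, then 7.37 and 6.08 for RAG1-/- samples. Only the E2A-/- samples were high, and Ccnd1 was 29.5-fold lower in RAG1-/- (adjusted p = 0.00474) and 29.3-fold lower in EBF-/- than in E2A-/- cells (adjusted p = 0.0103). Hes6, another Hes family gene, fell 1.22-fold from EBF-/- to RAG1-/- cells (adjusted p = 0.0326), as did Myc, a growth regulator, 1.93-fold (adjusted p = 0.0251), and Cdkn1a, a cell cycle inhibitor gene, 1.40-fold (adjusted p = 0.0157).

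**Figure D3:**
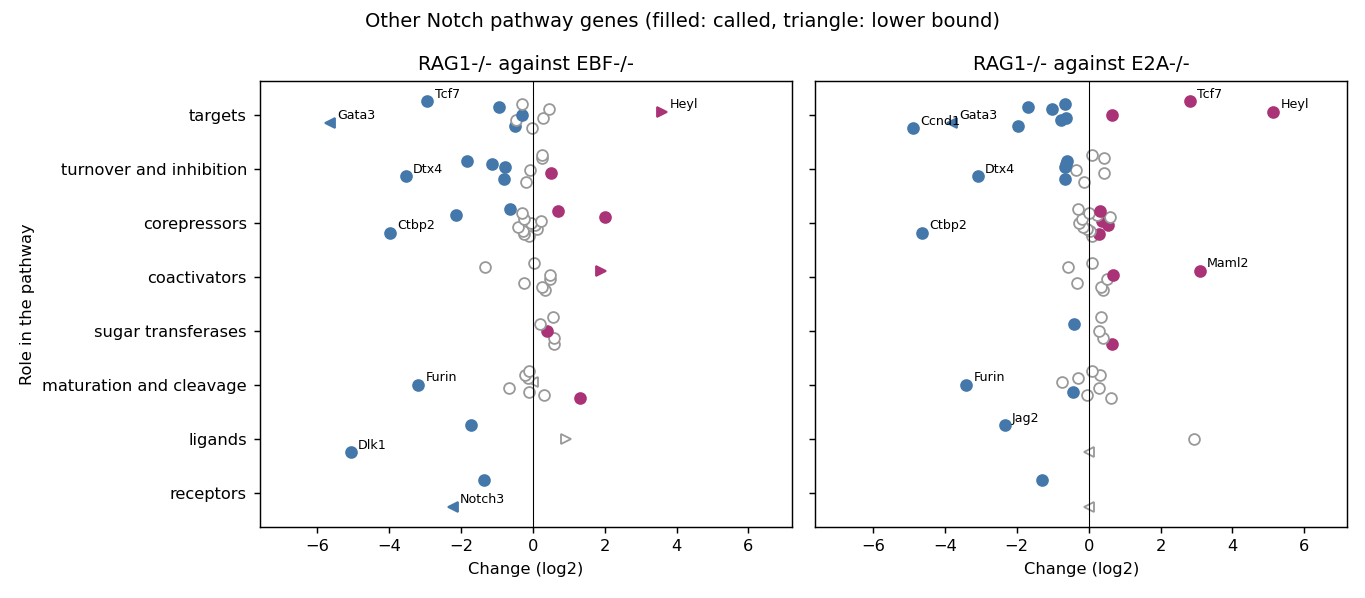
Change in log2 units (horizontal axis) of the other Notch pathway genes, grouped by role (vertical axis), in RAG1-/- against EBF-/- (left) and against E2A-/- cells (right). Each point is a gene, filled where called, and triangles are lower bounds. Heyl lies far to the right in both panels, and Gata3, Ctbp2, Dtx4 and Furin lie far to the left.

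Markers of cell types moved with the groups. All 8 B lineage markers were well above background in both RAG1-/- samples, with summed linear intensities of 1105350 and 916102, against 2911 to 19160 in the other 4. E2A-/- replicate 1, which shared an array with a RAG1-/- sample, had all 8 above background and replicate 2 had 3. The lowest log2 level that counted so was 3.92 in replicate 1 and 6.86 in replicate 2. The 10 T lineage markers summed to 34384 and 32780 in EBF-/-, 11329 and 11832 in RAG1-/- and 1546 and 2617 in E2A-/- samples. Thy1 and Lck were bright there, whereas Cd3d, Cd8a, Bcl11b and Ptcra were not well above background in any sample. The 11 stromal markers summed to 8298 and 7327 in EBF-/- samples and to 443 to 886 in the others; Pdgfrb was the bright one, and Dcn, Postn and Vcam1 were dim in all 6. The 7 myeloid markers summed to 3885 and 48455 in RAG1-/- replicates 1 and 2, 34430 and 35832 in EBF-/- and 83920 and 89148 in E2A-/- samples. The 7 NK markers reached at most 539 in RAG1-/-, 7624 in E2A-/- and 11104 in EBF-/- samples. The 4 mast cell markers summed to 119 and 2015 in RAG1-/- replicates 1 and 2, 79 and 114 in E2A-/- and 1534 and 1612 in EBF-/- samples, and the endothelial and erythroid markers to at most 725 and 122 in any sample. Dtx1 was lower in the RAG1-/- sample with the higher myeloid and mast sums. The part of these cells in the members' changes was not tested.

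The genes whose 6 values followed a member most closely, among 9702 genes well above background in all samples, are given as a description. With 3 groups of 2 samples, such values are set mainly by the group order. For Notch1 they were Dusp16 (Pearson's r = 0.9995, 6 samples), Ap2a2 and Fbxw4. For Hes5 they were Tnfaip3 (r = 0.999), Sae1 and Dck. None are given for Hes1 and Nrarp, which were not well above background in 4 of the 6 samples. Dtx1 was followed by Prim2 (r = 0.9981), Rbl1 and Iqsec1, and Rbpj by Map3k14 (r = 0.9983), Igtp and Camk2n2.

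E2A peaks lay near 6 of the 7 members but differed between cells. E2A binds E-boxes as a dimer. The lists differ in length: 11846 peaks in RAG1-/- cells, 4531 in EBF-/- cells, 26792 and 15386 in E2A-/- cells after 1 h and 6 h of E47-ER, and 17030 in A12 cells after 6 h. In RAG1-/- cells 4 members had an E2A peak within 50 kb, where 48.2% of 20757 genes with a position had one. In EBF-/- cells 6 members did, against 30.9% of genes. After E47-ER, 6 members had one at 1 h (64.9% of genes), at 6 h (52%) and in A12 cells (54.9%). These shares set how often such a peak is met by position alone, and with 1 library a list they carry no test.

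The 4 members with an E2A peak in RAG1-/- cells, where 48.2% of all genes had one, were the 4 genes that were higher there. There were 7 peaks near Hes1, 3 near Hes5, 3 near Nrarp and 5 near Dtx1. Some of these were nearest to the array probes of other genes: Tnfrsf14 for Hes5, Tubb4b and Nelfb for Nrarp, and Oas2 and Rasal1 for Dtx1. Here and below, the nearest gene is the one whose probes lie closest. A probe marks only its own position, so a peak within a gene can lie nearer to another gene's probe. Hes1 and Nrarp had entered the fit only through their RAG1-/- signal, and a link between peaks and levels was not tested. No E2A peak of RAG1-/- cells lay within 50 kb of Notch1, Notch2 or Rbpj, although 7 lay within 150 kb of Notch1 and 1 within 150 kb of Notch2. In EBF-/- cells each member but Rbpj had exactly 1. Rbpj had no E2A peak within 50 kb in any list, and up to 3 within 150 kb. Notch2 and Rbpj are long genes whose probes lie at the 3' end, so that their starts fall outside the 50 kb window.

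Notch1 had many E2A peaks after E47-ER: 12 peaks at 1 h, 7 at 6 h and 10 in A12 cells, all of them nearer to the Notch1 probes than to another gene's. Merged over lists they formed 17 sites, 8 of them in more than 1 list. The peak with the highest score, the authors' own value, which ranks peaks within a list, was in A12 cells at chr2:26290415-26290614, 9.14 kb upstream of the probe. It had a score of 67 and rank 7 of 17030, and it was in no other E2A list. A pair of sites at the 3' end, chr2:26280954-26281162 and chr2:26281879-26282102, was held by all 3 E47-ER lists. The first had ranks 663 of 26792 at 1 h, 1828 of 15386 at 6 h and 238 of 17030 in A12 cells. The only E2A peak of EBF-/- cells, at chr2:26267071-26267270 and 14.2 kb downstream, overlapped peaks of the 1 h and A12 lists.

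Hes1 had 13 E2A sites, 9 of them in more than 1 list, and every peak was nearest to Hes1. Sites at 14.9, 26.6, 30.5 and 31.8 kb upstream were peaks in RAG1-/- cells and at both times of E47-ER in E2A-/- cells. Of these, chr16:29955007-29955206 had the highest score in RAG1-/- cells, 30, with rank 1529 of 11846. The E2A peak of EBF-/- cells, chr16:29989959-29990158, lay 4.41 kb downstream and was shared with E47-ER but not with RAG1-/- cells.

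At Hes5, the RAG1-/- list held a peak 0.116 kb upstream of the probe, at chr4:153805823-153806022, with a score of 32 and rank 1330 of 11846. It overlapped a peak of the 1 h E47-ER list and none of EBF-/- or A12 cells. The EBF-/- peak, chr4:153807930-153808129, lay 1.99 kb downstream. Of 25 E2A peaks near Hes5, 9 were nearest to Hes5 and the others to neighbouring genes such as Tnfrsf14 and Plch2.

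Near Nrarp, 1 site at chr2:25046473-25046748, 42.1 kb downstream, was in all 5 E2A lists. It was the one such site around any member, and the nearest probe was that of Tubb4b, not of Nrarp. The RAG1-/- E2A peak next to Nrarp itself, chr2:25005433-25005632, lay 1.01 kb downstream and was in no other E2A list. By distance to array probes, only 3 of the 14 E2A peaks in its window were nearest to Nrarp, and 4 of 28 for Dtx1. Peaks within Dtx1 but upstream of its probe can be counted to a neighbour in this way. Dtx1 had 17 E2A sites, of which 5 held a RAG1-/- peak and 3 a RAG1-/- peak alone. The RAG1-/- peak with the highest score in its window, chr5:120967149-120967348 (score 27, rank 1862), lay 26.3 kb upstream of the Dtx1 probe. It overlapped both E47-ER lists of E2A-/- cells. The Oas2 probe was nearer to this peak, which does not place the peak outside Dtx1.

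**Figure D4:**
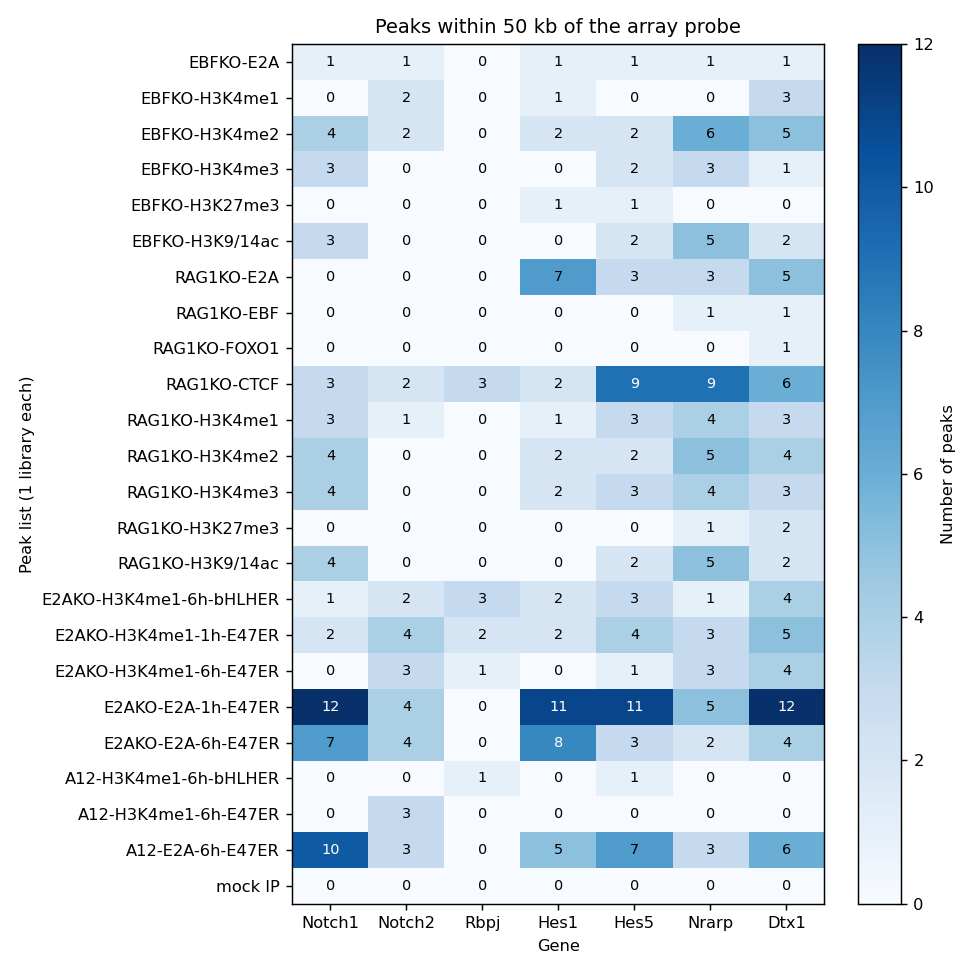
Number of peaks within 50 kb of the probes of each member (columns) in each of the 24 lists (rows, 1 library each), with darker cells for more peaks. The E2A row of RAG1-/- cells is empty at Notch1, Notch2 and Rbpj and holds 7 peaks at Hes1. The mock row is empty.

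EBF1 and FOXO1 had few peaks near these genes in RAG1-/- cells, and their lists were short (1402 and 1575 peaks). EBF1 peaks lay near 2 members, Nrarp and Dtx1 (11% of genes), and both overlapped an E2A peak of the same cells. The one near Dtx1, chr5:120965141-120965340, was 24.3 kb upstream with a score of 20 and rank 105 of 1402. The one near Nrarp, chr2:25018658-25018857, was 14.2 kb downstream with a score of 18 and rank 154, and was nearest to Nelfb. The 1 FOXO1 peak near a member was at Dtx1, chr5:120954702-120954777, 13.8 kb upstream (12.6% of genes), with a low score of 6. CTCF, whose list had 38838 peaks, lay near all 7 members (85.2% of genes), and the mock list near none (1.25% of genes).

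H3K4me3, a mark of active and poised promoters, was present near 5 members in RAG1-/- cells (70.1% of genes) and near 4 in EBF-/- cells (61.6%). At Hes1, a peak over the probe (chr16:29985600-29986599, score 261, rank 1708 of 13205) was in the RAG1-/- list, and the EBF-/- list had none within 50 kb. Peaks at chr4:153804628-153805627, 0.911 kb upstream of the Hes5 probe, and at chr2:25002828-25003827, 1.20 kb upstream of the Nrarp probe, were likewise in the RAG1-/- list and not in that of EBF-/- cells. So was a peak at chr5:120971445-120972444, 31.0 kb upstream of the Dtx1 probe. The Oas2 probe was nearer to that peak, but the start of Dtx1 was not placed on mm8. Probe distance therefore does not say which of these genes the peak belongs to. Hes5, Nrarp and Dtx1 also had H3K4me3 sites shared by both lists: at 2.30 kb downstream and 34.4 kb upstream of the Hes5 probe, at 13.3, 28.5 and 41.6 kb downstream of that of Nrarp, and 30.9 kb downstream of that of Dtx1. All but the Hes5 site at 2.30 kb had an EBF-/- peak nearest to another gene's probe. These genes were Tnfrsf14 in the Hes5 window, Tor4a, Stpg3 and Tubb4b in that of Nrarp, and Ddx54 in that of Dtx1. Notch1 had sites in the RAG1-/- list alone upstream of its probe (chr2:26304863-26305862, score 19) and downstream of it (chr2:26266326-26267325, score 201). Close to the downstream site, chr2:26267557-26268556 was in the EBF-/- list alone. A Notch1 peak 43.8 kb upstream of the probe (chr2:26324659-26325677 over both lists) was in both, with rank 1797 of 13205 in RAG1-/- and 320 of 9064 in EBF-/- cells. Rbpj and Notch2 had no H3K4me3 peak within 50 kb in either list.

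H3K27me3, a repressive mark, was listed near 2 members in each cell type, but not the same ones. In EBF-/- cells (9.76% of genes) peaks lay 2.41 kb downstream of the Hes1 probe and 16.3 kb upstream of the Hes5 probe. In RAG1-/- cells (16.1% of genes) they lay 3.96 kb downstream of the Nrarp probe and, for Dtx1, 2.87 kb upstream and 30.2 kb downstream. Nrarp and Dtx1 had no such peak in EBF-/- cells, and Hes1 and Hes5 had none in RAG1-/- cells. The lists were short, with 1311 and 2130 peaks.

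H3K4me1, found at enhancers, was listed near 6 members in RAG1-/- cells (74.1% of genes) and 3 in EBF-/- cells (44.7%), where Notch2, Hes1 and Dtx1 had peaks. In E2A-/- cells it was near all 7 with bHLH-ER (65.8%) and after 1 h of E47-ER (66.9%), and near 5 after 6 h of E47-ER (55.2%), where Notch1 and Hes1 had none. In A12 cells only Hes5 and Rbpj had a peak with bHLH-ER (48.3%) and only Notch2 with E47-ER (44.4%). Notch1 thus had 10 E2A peaks and no H3K4me1 peak in A12 cells with E47-ER. H3K4me2 lay near 6 members in EBF-/- (79.2%) and 5 in RAG1-/- cells (80.3%), and acetylated H3 (H3K9/14ac) near the same 4 members, Notch1, Hes5, Nrarp and Dtx1, in both (69.5% and 69.3%).

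**Figure D5:**
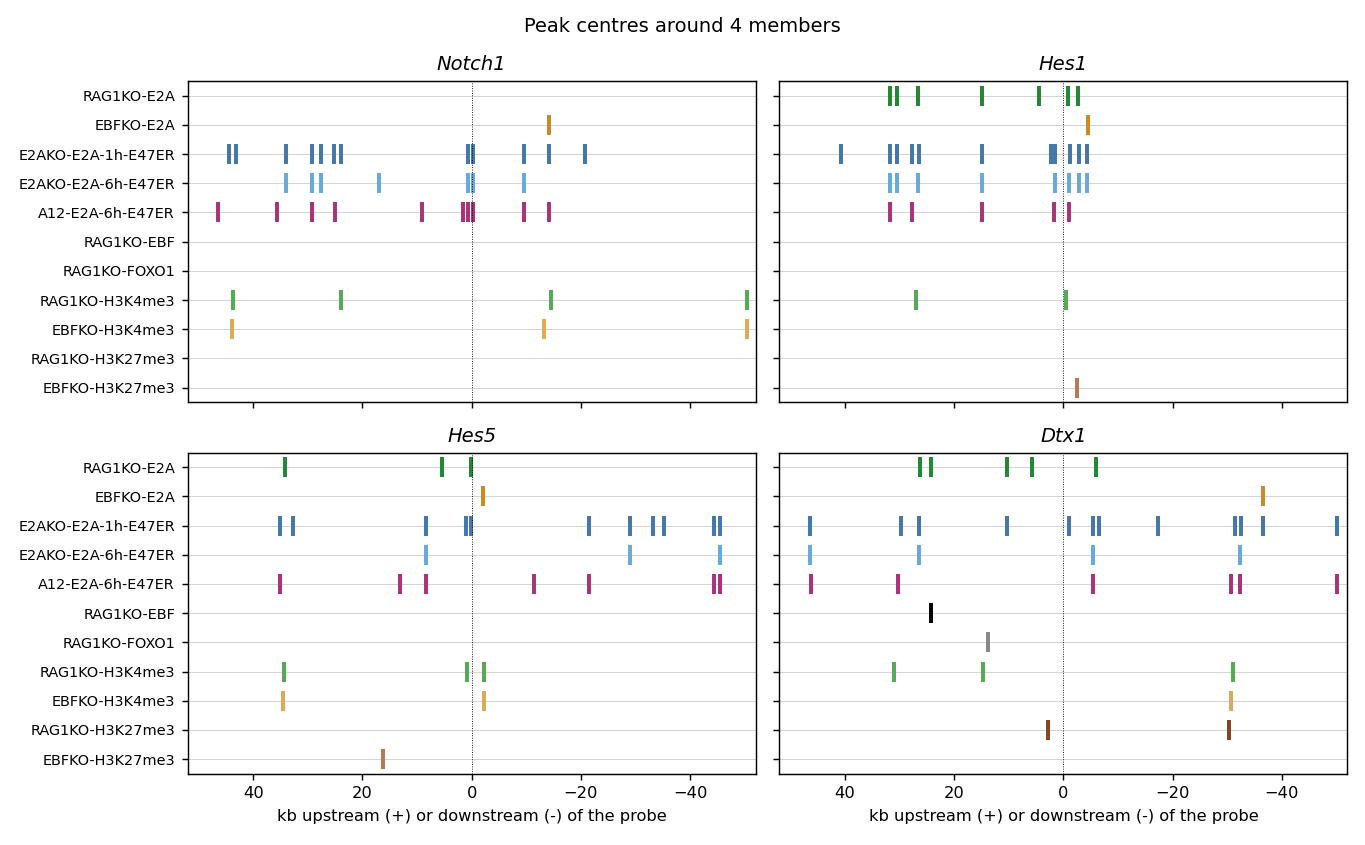
Centres of peaks (ticks) around Notch1, Hes1, Hes5 and Dtx1, by distance from the probe in kb (horizontal axis, upstream to the left), for the E2A, EBF1, FOXO1, H3K4me3 and H3K27me3 lists (vertical axis). Notch1 has no tick in the E2A row of RAG1-/- cells and 12 in the 1 h E47-ER row, and Hes1 has 7 in the E2A row of RAG1-/- cells.

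Over the 6 genes with E2A peaks there were 78 E2A sites, of which 36 were in more than 1 list and 1 in all 5. Of the 18 sites with a peak in RAG1-/- cells, 8 were in no other E2A list. A peak from at least 1 E47-ER list, A12 included, was present at 69 of the 78 sites, and a peak from EBF-/- cells at 6. The lists differ in length, and the same counts were not made over all E2A sites. These overlaps therefore cannot be read as a trait of the members.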

How the data were processed

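RNA was measured on 4 Agilent arrays of 2 colours, of which the labels assign 6 channels to samples; the other 2 channels were not used here. The deposited intensity values were per the file headers, background-subtracted and dye-normalized in version 9.5.3.1 of Agilent Feature Extraction. Peak lists carry the authors' score for each peak, of a kind not given in the sources used here, on build mm8; HOMER is named in the submitters' processing notes.

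Spots of a probe were averaged, taken to log2, quantile-normalized between channels and kept where both samples of a group were well above background (22133 of 41099 probes). The brightest probe stood for a gene, which left 12593 genes. These log2 values, computed from the deposited intensities, were tested with limma 3.58.1 in R 4.3.3, with a dye term and the array as a random block, and Benjamini-Hochberg adjustment at 0.05. The correlation within an array was -0.0274. Residual degrees of freedom were 2, so the number of arrays limits the precision. Probes were named through accessions (23483 probes), symbols (6678), synonyms (2887) or the file's own name (1325), and 6801 had no name. The fit and the peak counts were tested on simulated data.

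A peak was counted where it lay within 50 kb of a member's probes, and peaks that overlapped by at least 1 base were merged into a site. The nearest gene of a peak was the one with the closest array probes. The text names all 7 members, called pathway genes, mostly those with the largest changes of their role, and the 3 genes most correlated with a member, except for Hes1 and Nrarp. The members and lists were chosen with earlier results of these data known. Alternatives covered background correction, scaling, filters, probe choice, dye, array and replicate terms, each sample left out, the window and the peak threshold.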

Additional observations from a re-analysis of the deposited data

How the results depend on the processing

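Of 249 values for the members' changes, 223 kept their direction and their side of the threshold, 22 lost the call, 2 gained it and 2 turned sign. The 2 that turned passed in neither fit: Rbpj between RAG1-/- and EBF-/- cells, -0.0231 with normexp background correction, and Dtx1 between EBF-/- and E2A-/- cells, which ran from -1.11 to 0.77 with 1 sample left out (0.77 without E2A-/- replicate 1). Between EBF-/- and E2A-/- cells, 3061 genes were called, 570 without normalization between channels, 1947 without the filter on dim probes, and 434 to 5313 with 1 sample left out; the members called there, 1, became 0 with normexp background correction, 0 without normalization, and 0 to 2 with 1 sample left out. Between RAG1-/- and EBF-/- cells, 5540 genes became 1293 without normalization and 2293 to 6012 with 1 sample left out, and the 5 members called became 2 where every channel had to be well above background and 3 to 5 with 1 sample left out. Between RAG1-/- and E2A-/- cells, 5808 genes became 1481 without normalization and 3320 to 6440 with 1 sample left out, and the 6 members called became 3 under the strict filter, which admits fewer genes, and 5 with any 1 sample left out. For the other settings the cause was not tested. Leaving out a sample leaves a lone sample, assumed to vary like the other groups.

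The replicate numbers did not pair the samples. Correlations of deviations were -0.401 for E2A-/- with EBF-/-, 0.166 for E2A-/- with RAG1-/- and 0.0143 for EBF-/- with RAG1-/- samples. E2A-/- replicate 2 and EBF-/- replicate 1 shared an array, and the part of this in the first value was not tested. With the replicate block in place of the dye term, 2998, 5421 and 5757 genes and 1, 5 and 6 members were called. With crossed numbers, chosen after seeing the data, 2768, 5279 and 5563 genes were called.

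Members with an E2A peak in EBF-/- cells, 6 within 50 kb, were 2 within 10 kb and 3 among peaks scored at or above the list's median. E2A sites in more than 1 list, 36, were 10 within 10 kb, 101 within 150 kb and 21 among peaks at or above each list's median score. Without normalization the median of all genes moved to -0.27, 0.58 and 0.31 in the 3 comparisons. Low signal limits Notch2, Hes1 and Nrarp, and each peak list rests on 1 library.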
